A study of Mus musculus with 9 samples.

Results

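The genes described here encode the subunits, activators, inhibitor and assembly chaperones of the proteasome. They were taken from the 34590 genes of the count files by symbol alone: a name that starts with Psm, a letter from a to g and a number. Of 53 such symbols, 4 were pseudogenes and 2 had a summed count under 90 over the 9 libraries, Psmb9 with 78 counts and Psmb11 with 15. The remaining 47 genes are the members: 17 of the core particle, 17 of the regulatory particle, 5 activators or inhibitors (Psme1 to Psme4 and Psmf1), 7 assembly chaperones, and Psmc3ip, a recombination cofactor that shares only the name. All 47 passed the filter on low counts. No difference between the groups entered this rule.

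RNA was sequenced from the telencephalon, the front part of the embryonic brain that forms the cortex and the ganglionic eminences, of mouse embryos at E12.5, in the middle of gestation, on a mixed strain background. There were 5 libraries from wild-type embryos (WT 1 to WT 5) and 4 from embryos that lost Lats1 and Lats2 through Nestin-Cre (dKO 1 to dKO 4). Nestin-Cre acts in neural progenitors and their descendants, so blood vessels, microglia and blood in the same tissue keep the floxed genes. The labels name the controls as wild type and give no Cre or floxed status for them. They count 5 control and 4 dKO embryos, so each library stands for an embryo, and litters are not given. Lats1 and Lats2 are the Hippo pathway kinases that hold the coactivators YAP and TAZ in check, and the study asks how their loss changes the amount of RNA per cell. For that reason the same number of cells was counted out for each sample and ERCC spike-ins, synthetic RNAs of known amount, were added per number of cells before extraction.

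The proteasome is the barrel-shaped protease that degrades proteins tagged with ubiquitin. Its core particle is a stack of rings of alpha subunits (Psma genes) and beta subunits (Psmb genes), and Psmb5, Psmb6 and Psmb7 hold the proteolytic sites inside the barrel. The regulatory particle caps the core: a base of ATPases (Psmc genes) and scaffold subunits unfolds the substrate, and a lid (most Psmd genes) removes its ubiquitin. Immune cells and cells exposed to interferon replace the catalytic subunits with Psmb8, Psmb9 and Psmb10. The genes of the constitutive subunits are known to respond together to the transcription factor Nfe2l1 through antioxidant response elements in their promoters.

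Depth ranged from 12906561 gene counts in WT 1 to 45803152 in dKO 1. The libraries held 49.9 to 63.5 gene counts per spike-in count in WT and 71.1 to 83.7 in dKO. WT 2, WT 3 and WT 4 stood apart: 39.3% to 41.3% of their reads fell in no gene, against 32.5% and 34.4% in WT 5 and WT 1 and 32.0% to 35.6% in dKO. The counts of relative calls below are therefore also given with WT 1 and WT 5 as the only controls. Levels within a library are counts per 1000000 gene counts (CPM), with the gene counts of each library scaled by TMM (described below). Lats1 stood at 132 ± 4.55 CPM over the WT libraries (SD, n = 5) and at 59.8 ± 1.08 CPM over the dKO libraries (n = 4), lower in every dKO library. Lats2 was at 27.0 ± 6.18 and 43.4 ± 9.46 CPM. The labels do not say which exons are removed, and whole-gene counts include the others, so the Lats2 count checks nothing. All 12 telencephalon markers, Emx1 and Pax6 among them, had counts, and their summed level was 2345 to 2473 CPM in WT and 2295 to 2535 CPM in dKO. Relative to the library, 7 fell and 1 rose (edgeR), and 3 fell and 1 rose with WT 1 and WT 5 as the only controls. Nes, a progenitor marker, was at 784 CPM in WT and 1178 CPM in dKO on average. It was the only marker of the list that rose. Sox2 was at 173 and 181 CPM, Pax6 at 144 and 140 CPM and Emx2 at 34.1 and 31.5 CPM, none past the threshold. Dcx, a marker of young neurons, was at 672 and 481 CPM, and the ventral markers Dlx1 and Dlx2 at 164 and 89.8 CPM and at 31.0 and 16.8 CPM. The part of these marker changes in the levels of the proteasome genes was not tested.

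A window of the promoter is shown for 5 genes that the results return to. They include most of the 5 members, of 39 searched, that had a match to the motif marked here. The windows therefore do not show how common a match is. Each window is the 250 bases before the start of the gene, read along the gene's strand from RefSeq's GRCm38.p6 annotation. Capitals mark a match to the core of the antioxidant response element, TGACNNNGC, on either strand. The first pair are the catalytic core genes Psmb5 and Psmb6, the next pair the regulatory genes Psmc6 and Psmd12, all with a match. The last is Psmd1, the member with the largest relative rise among those that passed the test, which has none. The windows are chr14:54617996-54618245 (minus strand) for Psmb5, chr11:70525107-70525356 (plus strand) for Psmb6, chr14:45329574-45329823 (plus strand) for Psmc6, chr11:107479278-107479527 (plus strand) for Psmd12 and chr1:86064369-86064618 (plus strand) for Psmd1.
Psmb5: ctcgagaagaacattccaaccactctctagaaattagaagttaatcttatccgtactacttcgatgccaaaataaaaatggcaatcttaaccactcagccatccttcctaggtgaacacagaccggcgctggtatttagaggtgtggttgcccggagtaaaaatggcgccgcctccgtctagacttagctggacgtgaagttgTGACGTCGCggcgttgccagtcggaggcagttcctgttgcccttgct
Psmb6: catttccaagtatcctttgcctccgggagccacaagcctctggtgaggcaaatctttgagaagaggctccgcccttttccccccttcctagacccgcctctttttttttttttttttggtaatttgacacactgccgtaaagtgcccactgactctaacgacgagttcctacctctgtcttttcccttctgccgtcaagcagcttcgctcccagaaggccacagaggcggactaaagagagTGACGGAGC
Psmc6: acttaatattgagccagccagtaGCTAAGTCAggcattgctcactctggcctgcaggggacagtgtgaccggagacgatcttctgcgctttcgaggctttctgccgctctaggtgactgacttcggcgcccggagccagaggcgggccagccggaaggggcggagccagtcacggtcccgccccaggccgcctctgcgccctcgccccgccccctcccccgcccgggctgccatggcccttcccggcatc
Psmd12: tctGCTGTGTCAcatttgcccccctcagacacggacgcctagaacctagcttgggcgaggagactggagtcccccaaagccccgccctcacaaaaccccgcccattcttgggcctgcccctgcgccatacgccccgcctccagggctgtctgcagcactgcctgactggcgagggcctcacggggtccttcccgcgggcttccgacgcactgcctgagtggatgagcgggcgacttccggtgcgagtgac
Psmd1: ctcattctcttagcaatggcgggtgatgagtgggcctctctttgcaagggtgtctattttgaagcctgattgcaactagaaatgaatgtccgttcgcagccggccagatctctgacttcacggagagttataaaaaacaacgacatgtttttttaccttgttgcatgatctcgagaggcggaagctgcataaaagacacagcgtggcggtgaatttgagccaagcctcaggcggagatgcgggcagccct
The match began 47 bases before the start in Psmb5, 9 in Psmb6, 227 in Psmc6 and 247 in Psmd12, and in the latter pair it lies on the opposite strand. Psmd9, a chaperone of the base, had the only other match, 31 bases before its start.

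The promoter table held 39 of the 47 members. The antioxidant response element core was in 5 of 39 (12.8%), 2 of 13 core genes, 2 of 14 regulatory genes and 1 of 6 chaperones, against 11.5% of the 27025 genes of the table. The CCAAT box (CCAAT) was in 13 of 39 (33.3%), 6 of them core genes and 4 regulatory, against 37.5% of all genes. A site of the TEAD factors, the DNA-binding partners of YAP and TAZ (GGAATG), was in 4 of 39 (10.3%) against 14.4%. The E-box CACGTG was in 4 of 39 (10.3%), none of them regulatory, against 6.86%. Both strands were searched and none of the motifs contains another. Counted over the 32851 promoters instead of genes, the shares were 10.2%, 33.9%, 12.6% and 6.02% in the same order. A match in a window of this length is a description only.

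Per counted cell, nearly all members were more abundant in the dKO telencephalon. Against the spike-ins, 45 of the 47 rose and none fell (quasi-likelihood test of edgeR, p adjusted by Benjamini-Hochberg over 17182 genes, threshold 0.05). The median rise was 0.56 on the log2 scale (1.48-fold). Over all genes tested the median was 0.43 (1.34-fold), with 61.1% risen and 0.698% fallen. In bulk tissue, a change in the share of cells of a type and a change in the RNA of each cell cannot be told apart.

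The catalytic core gene Psmb6, which carries the caspase-like site, shows the pattern. It stood at 8.78, 7.90, 10.2, 9.75 and 10.4 counts per 1000 spike-in counts in WT 1 to WT 5, and at 12.1, 14.99, 13.8 and 14.3 in dKO 1 to dKO 4. Every dKO library lay above every WT library. The log2 fold change was 0.55 (SE 0.11, edgeR adjusted p = 6.34e-05). Psmd1, the large scaffold subunit of the base, stood at 11.8, 11.3, 13.8, 12.9 and 13.9 counts per 1000 spike-in counts in WT and 18.99, 20.7, 19.6 and 21.99 in dKO. Its groups were further apart, and it rose by 0.67 (SE 0.10, edgeR adjusted p = 3e-06), or 1.59-fold.

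All parts of the complex shared in the per-cell gain, in unequal measure. All 14 constitutive core genes rose, with a median log2 fold change of 0.55, and so did all 17 regulatory genes, with a median of 0.60. The 7 chaperones rose with a median of 0.58. The 4 activators and the inhibitor rose as well, with a median of 0.35, below that of all genes. The 2 members that did not pass were core genes with few counts: the testis subunit Psma8 (log2 fold change 0.77, SE 0.43, edgeR adjusted p = 0.116) and the inducible subunit Psmb8 (0.32, SE 0.33, adjusted p = 0.409). Every dKO library exceeded every WT library in 42 of the 47 members, against 48.4% of all genes. The 5 whose groups overlapped were Psma8, Psmb8, Psmb10, Psme1 and Psme2.

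**Figure D1:**
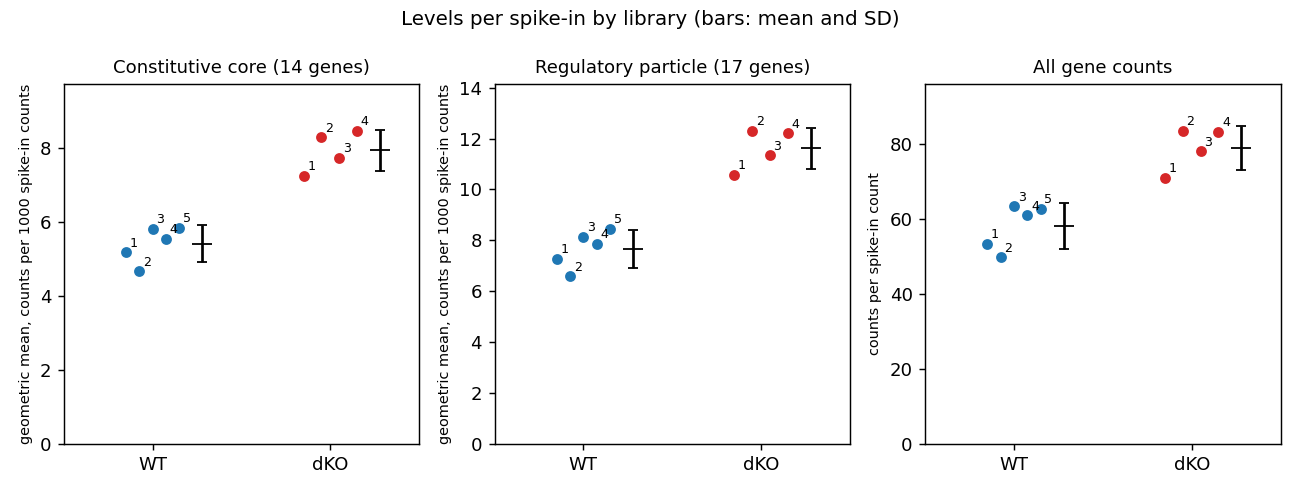
Level per spike-in in each library for the 14 constitutive core genes and the 17 regulatory genes (geometric mean, counts per 1000 spike-in counts), beside all gene counts (counts per spike-in count). Points are libraries with their replicate number and bars the mean and SD of a group. The 4 dKO libraries lie above the 5 WT libraries in each panel: 7.24 to 8.47 against 4.67 to 5.84 for the core, and 10.6 to 12.3 against 6.59 to 8.46 for the regulatory particle.

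The per-cell gain did not rest on the 3 WT libraries with more reads in no gene. With WT 1 and WT 5 as the only controls, 42 of the 47 members rose per cell, against 48.2% of all genes, and none fell. Psmb10 (log2 fold change 0.35, edgeR adjusted p = 0.217), Psmd9 (0.35, adjusted p = 0.0642) and Psme2 (0.34, adjusted p = 0.125) no longer passed, beside Psma8 and Psmb8.

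Measured within each library, where the common gain cancels, the 47 members together still took a larger share of the gene counts in dKO. Member counts made up 0.459% to 0.485% of gene counts in the WT libraries and 0.507% to 0.520% in the dKO libraries. Under TMM scaling, which compares each gene with the typical gene of its library, 25 of the 47 members rose and none fell by the edgeR test, against 13.7% risen and 12.0% fallen among all genes tested. With WT 1 and WT 5 as the only controls, no member rose or fell, against 2.33% of all genes risen, so edgeR made none of these calls without WT 2, WT 3 and WT 4. With all 9 libraries, 31 rose and none fell at an unadjusted p under 0.05 (edgeR), against 3333 risen and 3196 fallen of 17182 genes. DESeq2 and limma-voom each called 26 rises and no fall among the members. Over the 17182 genes, DESeq2 called 2493 rises and 2331 falls, and limma-voom 2450 and 2194. The changes were small, with a median log2 fold change of 0.13 (1.09-fold) over the members against -0.01 over all genes. In CPM, every dKO library exceeded every WT library in 26 of the 47 members, against 12.6% of all genes. The reverse held for none of the members and 9.73% of all genes.

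**Figure D2:**
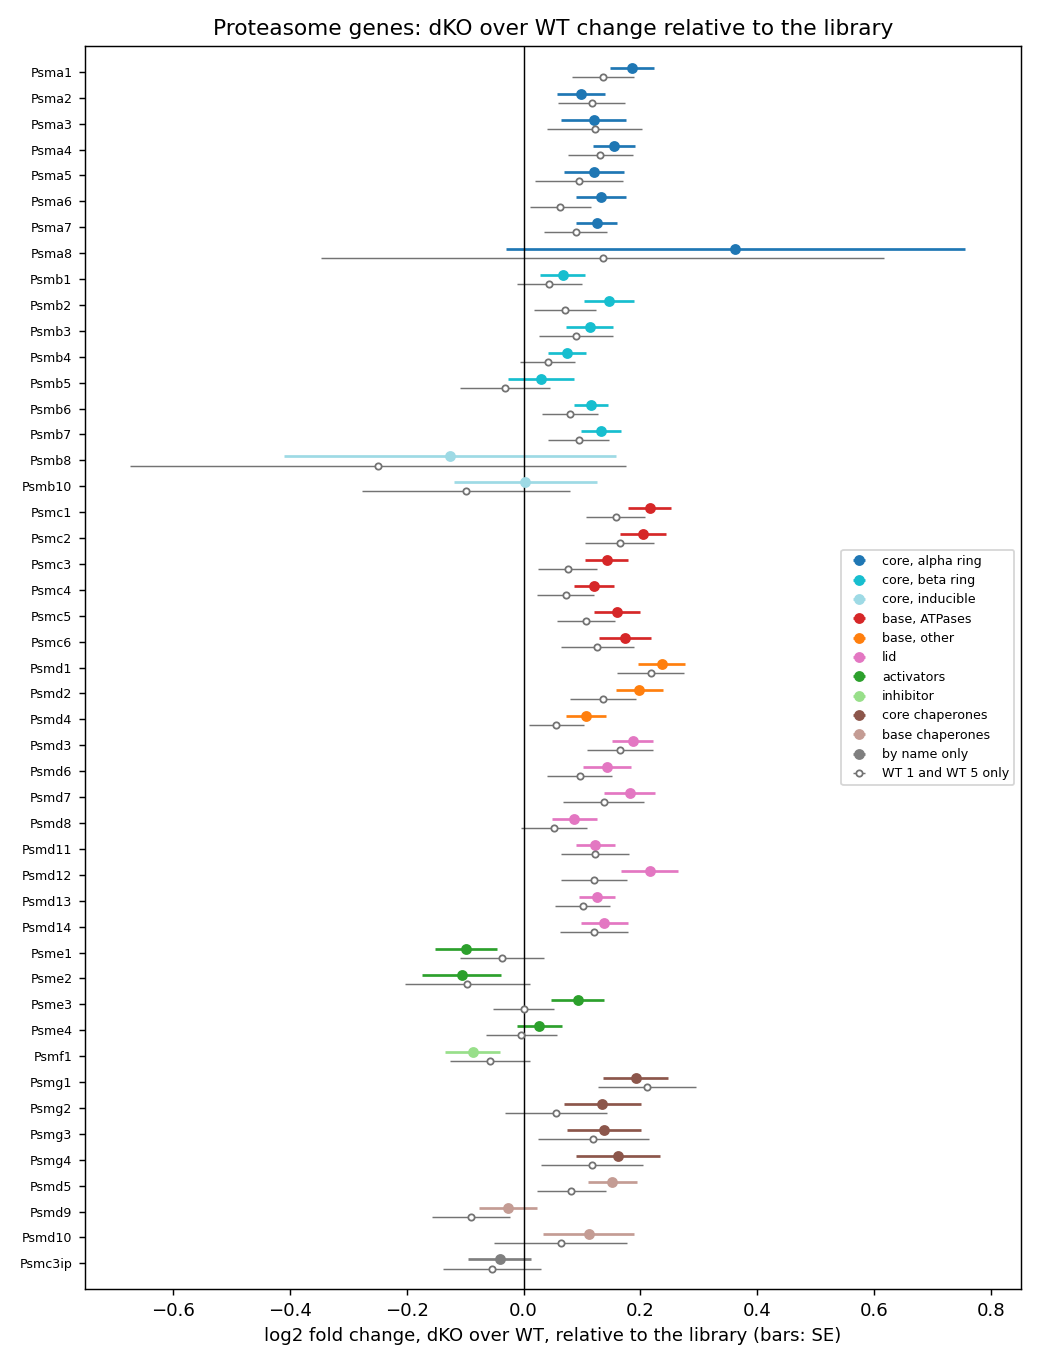
Log2 fold change of each of the 47 members, dKO over WT, relative to the library (TMM scaling). Filled points use all 9 libraries, open points WT 1 and WT 5 as the only controls, and bars are the SE. All 17 regulatory genes lie above 0 in both fits, Psmd1 furthest at 0.24 and 0.22, while Psme1, Psme2 and Psmf1 lie below 0.

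The regulatory particle carried most of these calls. Of its 17 genes, 16 rose beyond the library, with a median log2 fold change of 0.16 and a range of 0.09 to 0.24. None of the 17 passed with WT 1 and WT 5 as the only controls, and 4 passed with the share of reads in no gene as a covariate, so the gene values below hold for all 9 libraries together. Only the lid subunit Psmd8 did not pass (0.09, SE 0.04, edgeR adjusted p = 0.118). All 6 ATPases of the base rose, all 3 scaffold or receptor subunits of the base (Psmd1, Psmd2 and Psmd4), and 7 of the 8 lid subunits. In CPM, 15 of the 17 had every dKO library above every WT library.

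Psmd1 had the largest relative rise among the members that passed. Psma8, with few counts, had a larger value that did not pass (0.36, SE 0.39, edgeR adjusted p = 0.543). The levels of Psmd1 were 218, 227, 217, 211 and 223 CPM in WT 1 to WT 5, and 271, 245, 249 and 267 CPM in dKO 1 to dKO 4. The dKO libraries were all higher, and the log2 fold change was 0.24 (SE 0.04, edgeR adjusted p = 0.0018). Psmd2, the other large scaffold of the base and the most abundant regulatory transcript per length, rose by 0.20 (SE 0.04, adjusted p = 0.00446, edgeR). Its levels were 347, 333, 331, 334 and 361 CPM in WT and 406, 379.8, 379 and 399.7 CPM in dKO, again without overlap.

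The ATPases, which form the ring that threads substrates into the core, moved over a narrow range of 0.12 (Psmc4) to 0.22 (Psmc1). Psmc1 stood at 152, 146, 141, 139.9 and 149 CPM in WT and 176, 169, 163 and 168 CPM in dKO. All dKO values exceeded all WT values, and the rise was 0.22 (SE 0.04, edgeR adjusted p = 0.00188). Psmc2 rose by 0.20, Psmc6 by 0.17, Psmc5 by 0.16 and Psmc3 by 0.14. Psmc4 was the ATPase whose groups met, with 158 CPM in dKO 2 and 159 CPM in WT 1.

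In the lid, Psmd12, a structural subunit, moved most. It stood at 103, 91.0, 89.4, 94.3 and 99.8 CPM in WT and 118, 107, 107 and 111 CPM in dKO. The groups did not overlap, but WT 1 and WT 5 were the highest controls. The rise was 0.22 (SE 0.05, edgeR adjusted p = 0.00803) with all libraries, and 0.12 (SE 0.06, adjusted p = 0.276) with WT 1 and WT 5 as the only controls. Psmd14, the deubiquitinase of the lid, stood at 150.5, 157, 147, 150.5 and 155 CPM in WT and 177, 158, 162 and 172 CPM in dKO. Its lowest dKO library lay just above its highest control, and it rose by 0.14 (SE 0.04, edgeR adjusted p = 0.0284). Psmd3 rose by 0.19, Psmd7 by 0.18, Psmd6 by 0.14, Psmd13 by 0.13 and Psmd11 by 0.12.

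Fewer core genes passed the relative test. Of the 17, 7 rose: the alpha subunits Psma1 (0.19), Psma4 (0.15), Psma6 (0.13) and Psma7 (0.13), and the beta subunits Psmb2 (0.15), Psmb6 (0.12) and Psmb7 (0.13). None of the 17 passed with WT 1 and WT 5 as the only controls or with the covariate. All 14 constitutive core genes had a positive value, with a median of 0.12. Psma1 stood at 147, 139, 134, 137 and 138 CPM in WT and 164, 151, 159 and 157 CPM in dKO. Psmb6 stood at 162, 159, 160.1, 159.8 and 167 CPM in WT and 173, 178, 176 and 174 CPM in dKO. For both, each dKO library exceeded each WT library, and the edgeR adjusted p was 0.00472 for Psma1 and 0.015 for Psmb6. Psmb7, the trypsin-like subunit, rose by 0.13 (SE 0.03, edgeR adjusted p = 0.0164).

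Psmb5, the chymotrypsin-like subunit and the target of proteasome inhibitors, was the constitutive core gene with the smallest difference. It stood at 22.02, 21.2, 19.6, 19.7 and 20.9 CPM in WT and 20.9, 21.5, 19.9 and 22.2 CPM in dKO. The groups overlapped throughout, with a log2 fold change of 0.03 (SE 0.06, edgeR adjusted p = 0.742). Psmb1 (0.07, adjusted p = 0.226), Psmb4 (0.07, adjusted p = 0.113), Psmb3 (0.11, adjusted p = 0.058), Psma2 (0.10, adjusted p = 0.104), Psma3 (0.12, adjusted p = 0.138) and Psma5 (0.12, adjusted p = 0.105) also missed the threshold of the edgeR test. The difference between core and regulatory genes was not tested as such. Within each library, the log2 ratio of the geometric mean of regulatory genes to that of the constitutive core genes was 0.49, 0.50, 0.49, 0.51 and 0.53 in WT 1 to WT 5 and 0.55, 0.57, 0.55 and 0.53 in dKO 1 to dKO 4. The ranges met at WT 5 and dKO 4.

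**Figure D3:**
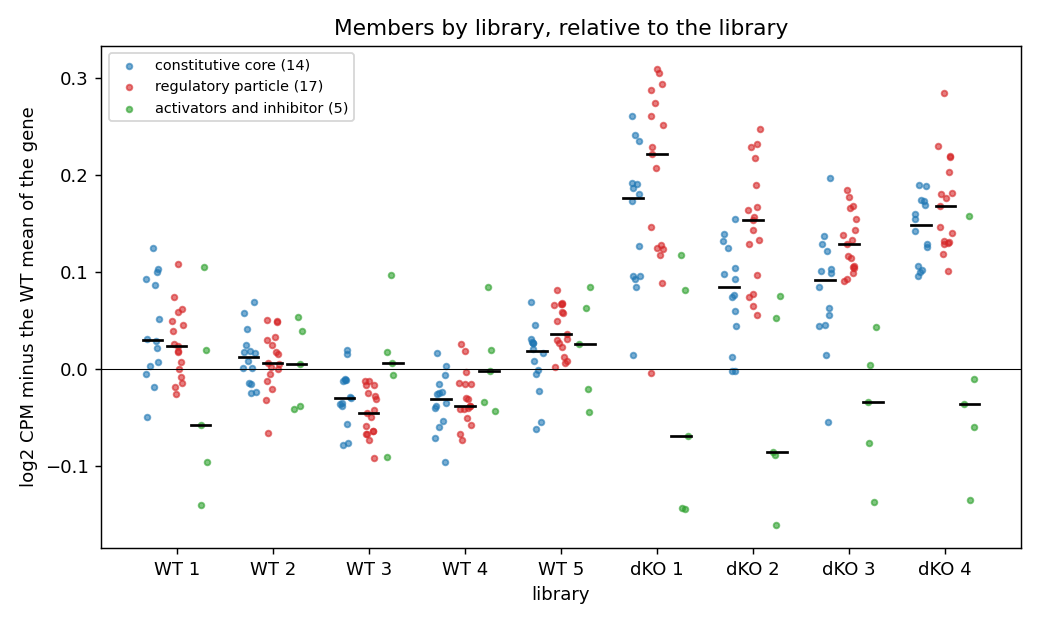
Log2 CPM of each gene minus its WT mean, by library, for the 14 constitutive core genes, the 17 regulatory genes and the 5 activators and inhibitor. Points are genes and black lines medians. WT 3 and WT 4 have the lowest core and regulatory medians and dKO 1 the highest (0.18 for core and 0.22 for regulatory genes).

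The relative rises depended on the control libraries. The geometric mean of the constitutive core genes was 95.7, 93.8, 91.2, 90.9 and 93.6 CPM in WT 1 to WT 5 and 104, 98.3, 98.4 and 103 CPM in dKO 1 to dKO 4. That of the regulatory genes was 134, 133, 128, 129 and 136 CPM in WT and 151, 146, 144 and 148 CPM in dKO. The dKO libraries were above all controls in both, and WT 3 and WT 4, with the most reads in no gene, were the lowest controls. With WT 1 and WT 5 as the only controls, where no member passed the edgeR test, 8 of 47 rose at an unadjusted p under 0.05 and none fell, against 10.4% of all genes risen. Psmd1 came closest (0.22, SE 0.06, unadjusted p = 0.00431, adjusted p = 0.0767, edgeR). DESeq2 called Psmd1 alone on these libraries and limma-voom called none. The medians were 0.12 for the regulatory genes, all 17 of them above 0, and 0.09 for the core. With that share as a covariate and all 9 libraries, 4 members rose, against 5.76% of all genes: Psmd1, Psmc1, Psmd3 and Psmc2, all of the regulatory particle.

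Single libraries also moved the count. Relative rises numbered 16 without WT 3 or without WT 4, 18 without WT 2 or without dKO 4, and 28 without WT 1. Core rises numbered 4 of 17 without any of WT 2, WT 3, WT 4 or dKO 4, and regulatory rises ranged from 11 to 16 of 17. The shares of all genes called in these fits are not reported here. Leaving out a library can change the calls of every gene, so these counts do not describe the members alone.

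The activators and the inhibitor, which bind the ends of the core in place of or in competition with the regulatory particle, gave no relative call. None of the 5 rose or fell by the edgeR test, at an adjusted or an unadjusted p under 0.05, and DESeq2 and limma-voom called none either, though limma-voom gave 2 an unadjusted p under 0.05 for a fall. Psme1 and Psme2, which form an interferon-inducible activator ring, had log2 fold changes of -0.10 (SE 0.05, edgeR adjusted p = 0.201) and -0.11 (SE 0.07, adjusted p = 0.282). Psme1 stood at 38.3, 42.1, 41.4, 43.4 and 39.7 CPM in WT and 37.1, 38.5, 37.2 and 40.7 CPM in dKO. Psmf1, the inhibitor, stood at 41.7, 45.0, 43.6, 44.0 and 42.8 CPM in WT and 41.3, 38.8, 41.1 and 42.3 CPM in dKO (log2 fold change -0.09, SE 0.05, edgeR adjusted p = 0.195). Both pairs of groups overlapped, with the dKO libraries in the lower part of the range. Psme3, a nuclear activator, had a value of 0.09 (adjusted p = 0.164, edgeR) and Psme4, the large single-chain activator, 0.03 (adjusted p = 0.66, edgeR).

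Among the 7 assembly chaperones, 2 rose relative to the library, and none with WT 1 and WT 5 as the only controls. Psmg1, which helps build the alpha ring, stood at 18.4, 21.1, 20.9, 19.5 and 21.1 CPM in WT and 22.4, 23.9, 23.2 and 23.01 CPM in dKO. It was higher in every dKO library, with a log2 fold change of 0.19 (SE 0.06, edgeR adjusted p = 0.0258). Psmd5, a chaperone of the base, rose by 0.15 (SE 0.04, edgeR adjusted p = 0.0205). Psmg2, Psmg3 and Psmg4 had values of 0.13 to 0.16 that did not pass. Psmd10, better known as gankyrin, was at 0.11 and Psmd9 at -0.03. Psmc3ip, which is no part of the proteasome, was at -0.04 (SE 0.05, edgeR adjusted p = 0.627).

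Levels between genes were compared per length of exon, as CPM per kilobase, with lengths from the GENCODE M21 annotation of GRCm38. In WT, the constitutive core genes had a median of 93.9 CPM per kilobase and spanned 8.80-fold, from 22.99 for Psmb5 to 202 for Psmb6. An assembled core holds its subunits in equal number. The regulatory genes had a median of 70.4, from 21.2 for Psmd11 to 115 for Psmd2. Activators and inhibitor had a median of 36.9, from Psmf1 at 10.9 to Psme4 at 55.9. The chaperones were lowest among the groups, with a median of 16.7 and a range of 11.2 (Psmd9) to 25.5 (Psmg4). Psmb10 was at 4.12 CPM per kilobase, Psmb8 at 0.476 and Psma8 at 0.192.

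**Figure D4:**
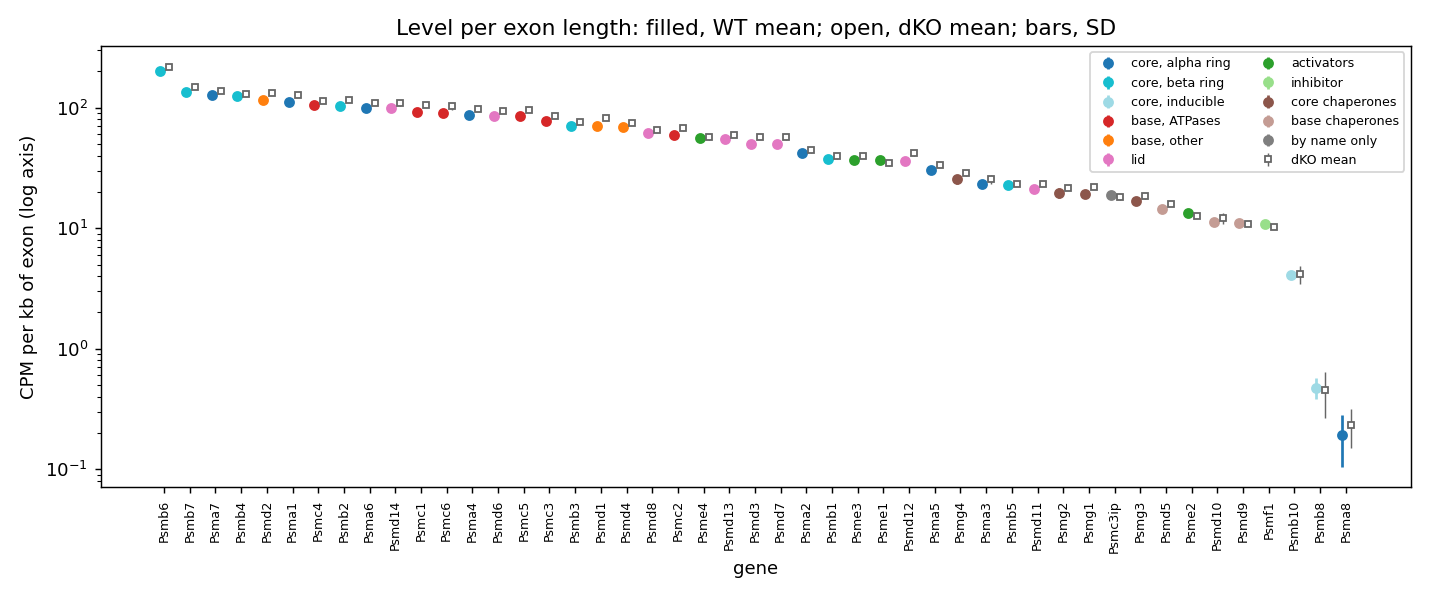
Mean CPM per kilobase of exon for each member in WT (filled, n = 5) and dKO (open, n = 4) on a log axis, ordered by the WT level, with SD bars. Psmb6 leads at 202 in WT, the constitutive genes reach down to Psmf1 at 10.9, and Psmb10, Psmb8 and Psma8 lie apart at 4.12 and less.

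Some of these levels are uncertain because transcripts share sequence. Of the members, 16 shared at least 1 window of 100 bases with a transcript of another gene and 10 shared over 5% of their windows. The largest shares were 44.5% in Psme2 (with Psme2b), 27.5% in Psma5, 24.9% in Psmb5, 24.0% in Psmc3ip and 20.6% in Psma3. The pseudogene Psme2b-ps, left out of the members by name, held 6463 counts. In Psmc3ip and Psmd13 (12.9%) the shared windows belong to a neighbour on the opposite strand, Mlx and Sirt3, and the strand setting of the counting was not stated in the sources used here. Psmd1 (6.84%) and Psmd2 (7.37%) shared less.

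The inducible catalytic subunits were scarce. The files held 192 counts of Psmb8, 1449 of Psmb10 and 78 of Psmb9 over the 9 libraries. As the gene order of the RefSeq table shows, Psmb8 and Psmb9 alternate with the peptide transporter genes Tap2 and Tap1 among the H2 genes of the major histocompatibility complex, and Psme1 and Psme2 lie on either side of Emc9. Psmb11, the thymus subunit, is the next gene to Psmb5.

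Each inducible gene was set against the constitutive subunit it replaces, as a count ratio within the library. The counts were not divided by exon length, which was 1.63 kilobases for Psmb8 and 0.899 for Psmb5. Psmb5 also shares 24.9% of its windows with other genes. The percents are therefore no measure of the proportion of transcripts. Psmb8 counts were 4.51%, 3.35%, 3.02%, 4.40% and 3.44% of Psmb5 counts in WT 1 to WT 5 and 2.13%, 3.19%, 3.30% and 5.23% in dKO 1 to dKO 4. Psmb10 counts were 3.51%, 3.16%, 3.47%, 3.38% and 3.62% of Psmb7 counts in WT and 2.53%, 3.17%, 3.02% and 3.98% in dKO. Psmb9 counts were 0.178% ± 0.0684 of Psmb6 counts in WT (SD, n = 5) and 0.193% ± 0.0822 in dKO (n = 4). In all 3 ratios the groups overlapped, and dKO 4 held the highest value of each.

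The log2 differences in these ratios, dKO minus WT, were -0.17 for Psmb8 (SE 0.29), 0.09 for Psmb9 (SE 0.43) and -0.13 for Psmb10 (SE 0.14). The exact permutation test over 126 assignments of the libraries gave two-sided p = 0.595, 0.849 and 0.373, and 0.849 for each after adjustment over the 3 ratios. The smallest p this design allows is 0.00794. Without dKO 4, the inducible to constitutive ratio Psmb10 over Psmb7 differed by -0.24 (exact permutation p = 0.0357, unadjusted).

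**Figure D5:**
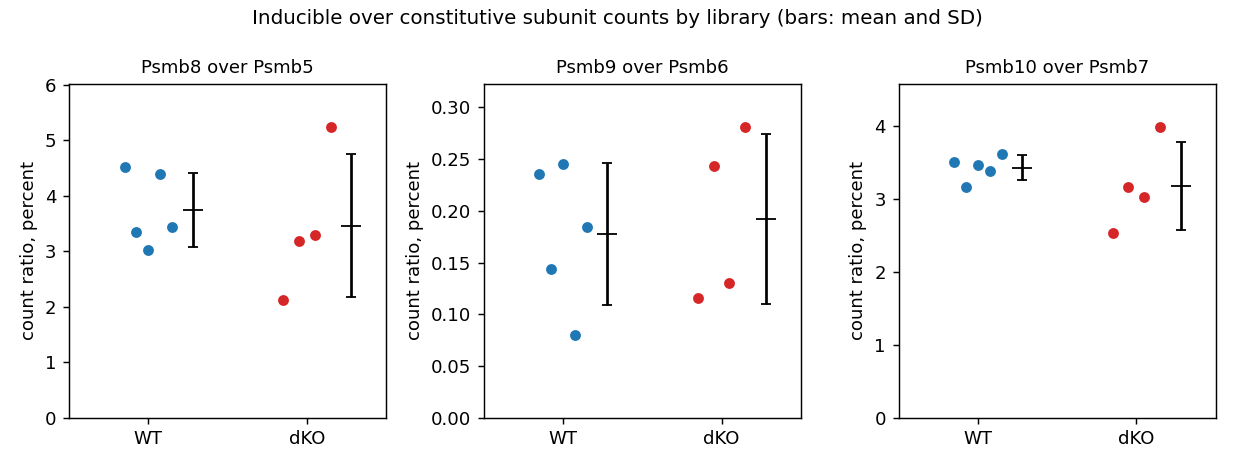
Count of each inducible subunit as a percent of the constitutive subunit it replaces, by library, with the mean and SD of each group at the side. Counts are not corrected for exon length. WT and dKO overlap in all 3 panels, and dKO 4 is the highest point in each.

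Other genes of immune cells and antigen presentation gave these values beside the inducible subunits. Of 13 antigen presentation and interferon genes tested, 4 rose relative to the library and none fell: H2-K1 (1.04), Tap1 (0.84), H2-Aa (5.80) and H2-Ab1 (1.38). H2-Aa was near the floor in WT, at 0.0256 to 0.0853 CPM, and at 0.758 to 5.86 CPM in dKO. H2-Ab1 was at 0.297 CPM in WT and 0.827 CPM in dKO on average. Tap1 stood at 1.82, 1.81, 1.60 and 4.09 CPM in dKO 1 to dKO 4, against a WT mean of 1.27 CPM. With WT 1 and WT 5 as the only controls, H2-K1 and H2-Aa rose, while Tap1 (edgeR adjusted p = 0.346) and H2-Ab1 (adjusted p = 0.241) did not pass. Of 12 microglia and macrophage markers, only Mrc1 rose (0.65), none fell and none was at 0 counts, with a summed level of 95.9 to 114 CPM in WT and 113 to 166 CPM in dKO. Endothelial markers summed to 266 to 343 CPM in WT and 260.0 to 340.2 CPM in dKO (1 of 10 rose), and pericyte and mesenchyme markers to 875 to 1081 and 799 to 1112 CPM (none of 8). Red cell genes summed to 2465 to 6649 CPM in WT and 1965 to 3579 CPM in dKO (1 of 8 fell). With WT 1 and WT 5 as the only controls, none of the microglia, endothelial and pericyte markers passed and 2 red cell genes fell. These counts stand against 13.7% of all genes risen and 12.0% fallen with all libraries. Their part in the levels of the members was not tested.

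Genes that work with the proteasome but carry other names were described from 4 lists. Of 5 subunit and assembly genes, all rose per cell, and only AI314180, the Ecm29 adaptor that holds core and regulatory particle together, rose relative to the library (0.12). The ubiquitin receptor Adrm1 was at 0.13 (SE 0.06, edgeR adjusted p = 0.15), the small lid subunit Shfm1 at -0.01 and the core maturation factor Pomp at 0.05. Of 10 regulators of proteasome genes and of substrate extraction, 2 rose relative to the library: the unfoldase Vcp (0.14) and its cofactor Nploc4 (0.12). Nfe2l1 itself was at 0.09 (SE 0.03, edgeR adjusted p = 0.0822). Of these 10, 9 rose per cell. Over all genes tested, 61.1% rose per cell and 13.7% rose relative to the library.

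Of 11 proteasome-bound deubiquitinases and ubiquitin shuttles, 7 rose and 1 fell relative to the library, against 13.7% and 12.0% of all genes. Uchl5 (0.30) and Usp14 (0.20), the deubiquitinases that dock on the base, rose, as did Txnl1 (0.31), a thioredoxin-like protein bound to the lid and base. The shuttles Rad23b (0.29), Ubqln1 (0.14) and Ubqln4 (0.13) rose, while Ubqln2 fell by 0.28 on the log2 scale. Of 6 genes for ubiquitin and its activating enzymes, Rps27a (0.24) and Uba6 (0.21) rose relative to the library and none fell. None of the genes of these 4 lists passed the relative test with WT 1 and WT 5 as the only controls.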

How the data were processed

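The authors deposited a table of raw counts per gene for each library, with rows for 92 ERCC spike-ins and 5 rows of the counter's own totals, which stayed out of library sizes and tests. The submitters' processing notes name STAR, HTSeq and the mouse build mm9. Their versions, the gene annotation and the strand setting were not given in the sources used here. Per the labels' protocols, total RNA libraries were made with a stranded kit from 350 ng of RNA and read as pairs of 100 bases.

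Genes kept by filterByExpr were tested with edgeR 4.0.16 (R 4.3.3, quasi-likelihood), 5 WT against 4 dKO. Library size was the total spike-in count (per cell) or TMM-scaled gene counts (relative), with Benjamini-Hochberg adjustment over all genes tested and a threshold of 0.05. Ratios had 0.5 added to each count. Every member is named. The other lists were searched for genes past the threshold, and up to 4 were named for the lists of other cell types. Some listed genes are not reported here by name. The members and lists were chosen with earlier results of these data known.

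Alternatives were DESeq2 1.42.0, limma-voom (limma 3.58.1), other filters, scalings, libraries, a covariate and a replicate block. The edgeR procedure was tested on simulated data first. The tests weigh the group difference against the spread between the libraries of these embryos. Per cell, that spread also holds any error in counting cells and adding spike-ins. Litters are not given, so the embryos were treated as independent. Depth was lowest in WT 1 (12906561 gene counts) and dKO 4 (16566763), and the scarce genes Psma8 and Psmb8 rest on 5 to 28 counts per library. Exon lengths and promoters come from GRCm38, not the build of the counts, and were joined by symbol.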

Additional observations from a re-analysis of the deposited data

Results flagged for a closer look

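The 47 members gave 188 groups of values, in WT and in dKO, as CPM and per spike-in. In 4 of them, all CPM, the most extreme library lay further from its neighbour than Dixon's 95% limit allows, and chance flags about 1 in 20 groups. Psmb2, a beta subunit, was at 101.88 CPM in dKO 4 against 97.6 to 98.3 in the other dKO libraries. Psmd11, a lid subunit, was at 66.767 CPM in dKO 1 against 68.8 to 69.2 in the others, still above every control. Psmd13, another lid subunit, was at 103.92 CPM in WT 3 against 109.6 to 110.1 in the other controls. Psmg4, a chaperone of the core, was at 12.155 CPM in WT 3 against 14.4 to 14.8. The values of WT 3 are low ones in a library with more reads in no gene.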

How the results depend on the processing

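Per-cell rises kept their direction and numbered 40 to 46 of the 47 members under every alternative, with 45 in the replicate block. Of all genes, 10371 of 17182 rose per cell with DESeq2, 10300 of 17182 with limma-voom and 10434 of 26765 with no filter. With WT 1 and WT 5 as the only controls, 48.2% rose per cell (edgeR). Shares for the other per-cell alternatives are not reported here. The relative rises did not hold so well. From 25 of 47 they numbered 0 with WT 1 and WT 5 as the only controls (DESeq2 1, limma-voom 0, both chosen after seeing the data) and 4 with reads in no gene as a covariate. In the same order, core rises went from 7 to 0, 0, 0 and 0, and regulatory rises from 16 to 0, 1, 0 and 4. Calls also became fewer among all genes. By edgeR, 13.7% rose in the main fit, 2.33% with WT 1 and WT 5 as the only controls and 5.76% with the covariate. Leaving out each library in turn gave 16 to 28 member rises and 4 to 9 core rises, with the shares of all genes not reported here. The inducible to constitutive ratio Psmb10 over Psmb7 then ranged from -0.2445 to -0.0245, with an unadjusted exact permutation p of 0.0357 without dKO 4, the library with the highest ratio. The fits without WT 2, 3 and 4 have fewer samples, and otherwise the cause was not tested. With replicate number as a replicate block, 19 members rose relative to the library, with the share of all genes not reported here. The deviations of same-numbered embryos from their group means had correlations of -0.16, -0.13, -0.29 and 0.16. These cannot exclude a weak pairing, and the labels do not say whether the numbers pair embryos. With no filter 19 members rose relative to the library, against 2131 of 26765 genes, where the main fit called 2355 of 17182 genes. With upper-quartile scaling 23 members rose, the share of all genes not reported here. No member or listed gene past the threshold changed sign. Over all alternatives, 52 of 1520 per-cell and 264 of 800 relative calls of these genes were lost.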
